A study of Mus musculus with 3 samples.

Results

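Cells detect viral RNA through a small set of sensors, and answer with type I interferon. The 9 genes described here cover both arms of that circuit: the RNA sensors Ifih1 (MDA5), Ddx58 (RIG-I, now also named Rigi), Dhx58 (LGP2) and Tlr3, the transcription factors Irf7, Irf9 and Stat2, and the receptor chains Ifnar1 and Ifnar2. They were taken as every probe whose gene symbol, or its older or newer synonym, is one of these names. Each gene had 1 probe among the 23473 probes of the array, Dhx58 under the older name D11Lgp2e and Irf9 under Isgf3g.

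Gene expression was measured in 3 lines of OP9 cells, a mouse stromal line from newborn calvaria of B6C3Fe-a/a-Csf1op/Csf1op mice on which blood cell precursors are often grown. The lines were OP9 itself, the control; OP9-GFP, which expresses green fluorescent protein; and OP9-DL, which expresses GFP and the Notch ligand Delta-like 1. All 3 share the Csf1op background and received no treatment, and whether a line is a clone and which promoter drives its transgene are not stated in the labels. Each line had 1 one-colour array, so no difference below has a replicate check, a test or an error. What GFP or Delta-like 1 does cannot be told apart from what else differs between the cultures, and fewer cells with a transcript cannot be told apart from less of it per cell.

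In this circuit MDA5 and RIG-I bind viral RNA in the cytosol and signal through the adaptor MAVS, while TLR3 reads double-stranded RNA in endosomes. IRF3 and IRF7 then switch on interferon genes. Secreted interferon binds the receptor made of IFNAR1 and IFNAR2, and the receptor's kinases activate STAT2. STAT2 and IRF9 are parts of the complex ISGF3, which binds the interferon-stimulated response element. Several sensors and factors are themselves interferon-stimulated, which makes the circuit self-amplifying, whereas the receptor chains are present in most cells at rest.

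The transcripts of the sensors and factors were far higher on the parental OP9 array than on both other arrays, and those of the receptor chains were not. Of the 8 genes bright enough to compare, 6 were lower by 2-fold or more in OP9-GFP than in OP9, against 6.75% of the 15581 probes compared, and 0 were higher, against 4.86%. The same 6 were lower by 2-fold or more in OP9-DL than in OP9, against 6.92% of probes, and 0 were higher, against 4.33%. Being lower in both was found in 3.98% of probes. These genes and the lists below were chosen with earlier results of these data known, so such counts are not independent of that choice. A probe was compared if it had a value on all 3 arrays and a mean log2 intensity of at least 2.62, an intensity of 6.13. Intensities are on the authors' scale, in which the median probe of each array has the value 20.

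The promoters of these genes were searched for the core of the interferon-stimulated response element, since that element is the ISGF3 binding site and the sensor and factor transcripts were low together. RefSeq sequences of the assembly GRCm38.p6 from 250 bases before to 50 bases after the start of transcription gave windows for 8 of the 9 genes, all but Dhx58, with a second window for Irf9. The core was spelled as GAAA, any 2 bases, and GAAA again, and was searched on both strands, so that it may also read as TTTC, any 2 bases, and TTTC. The Stat2, Ddx58 and Ifih1 windows held 1 match each, and the Irf7, Irf9, Tlr3, Ifnar1 and Ifnar2 windows held none. Shown are the matches with their surroundings, and the 100 bases before the Irf7 start as the window of the gene with the widest difference, with capitals marking the core on either strand.
Stat2, chr10:128270248-128270315, plus strand, positions -250 to -183 from the start: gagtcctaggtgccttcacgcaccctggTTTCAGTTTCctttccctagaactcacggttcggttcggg
Ddx58, chr4:40239804-40239875, minus strand, from 50 bases before to base 22 after the start: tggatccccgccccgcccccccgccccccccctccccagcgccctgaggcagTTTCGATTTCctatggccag
Ifih1, chr2:62646206-62646235, minus strand, bases 21 to 50 after the start: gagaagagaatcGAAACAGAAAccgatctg
Irf7, chr7:141266425-141266524, minus strand, the 100 bases before the start: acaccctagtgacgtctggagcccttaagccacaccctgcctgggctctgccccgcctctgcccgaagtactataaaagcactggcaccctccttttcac

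The core was present in 3.43% of 32817 promoter windows in the same table. The Ddx58 match also extends to a longer form that goes on with CT, which overlaps it and was found in 0.271% of windows. A match is a match of letters and not a measured site, and the Stat2 match lies far from the start while those of Ddx58 and Ifih1 lie after it. A window without a match, such as that of Irf7, does not show that the gene lacks the element. Only these spellings and these windows were searched. Among other compared genes with a window, 37 of 352 that were at least 2-fold lower on both OP9-GFP and OP9-DL than on OP9 held the core, 10.5%. Of 7625 genes within 2-fold of OP9 on both arrays, 257 held it, 3.37%. Of 206 genes at least 2-fold higher than OP9 on both, 9 held it, 4.37%. Of 18 interferon ligand windows 10 held it, 55.6%. Of the 19 listed ligands, 12 had no probe named here. The 5 that were compared were dim and 0 of them differed by 2-fold, and how many of the 5 hold the core was not counted. Of the interferon-stimulated effectors 12 of 29 windows held it, 41.4%, and 22 of 26 compared were at least 2-fold lower in each comparison with OP9. The windows and the compared genes of a list are not the same set. Only the genes described here were left out of the 352, so listed effectors are among them. How many of the 37 with the core they supply was not counted. Whether the core bears on the differences between arrays was not tested.

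**Figure D1:**
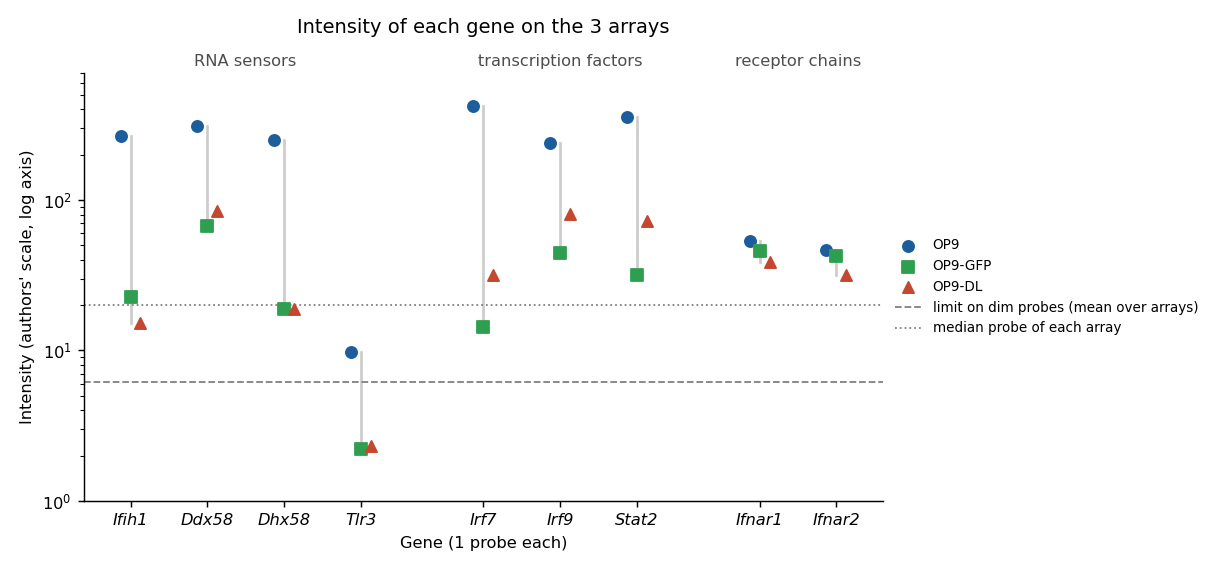
Intensity of the 9 genes on the OP9 (circle), OP9-GFP (square) and OP9-DL (triangle) arrays, on a log axis, 1 probe per gene and 1 array per line; grey bars join the lowest and highest value, and the dashed and dotted lines mark the brightness limit of 6.13 and the median probe of 20. The OP9 array stands above both others for every sensor and factor, from 424.4 against 14.2 and 31.6 for Irf7, while the 3 values of each receptor chain lie close together.

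Among the cytosolic sensors, Ifih1 encodes MDA5, which recognises long double-stranded RNA. Its intensity was 267.5 in OP9, 22.5 in OP9-GFP and 15.2 in OP9-DL. OP9 was thus 11.9-fold above OP9-GFP and 17.6-fold above OP9-DL, the latter a log2 difference of -4.14. In the comparison of OP9-DL with OP9 this was the lowest value among the 8 genes, where Ifih1 ranked 43 from the lowest among the 15581 probes.

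Dhx58 encodes LGP2, which has the helicase of this family but lacks the signalling domains of MDA5 and RIG-I, and modulates both. It read 251.3 in OP9, 18.7 in OP9-GFP and 18.8 in OP9-DL. OP9 stood 13.4-fold above both others, which read alike, and both of those were below the median probe of their arrays.

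Ddx58 encodes RIG-I, the sensor of triphosphate-ended RNA. It stood at 309.1 in OP9, 66.7 in OP9-GFP and 84.0 in OP9-DL. Its differences were the narrowest of the cytosolic sensors, 4.63-fold between OP9 and OP9-GFP and 3.68-fold between OP9 and OP9-DL. Unlike Ifih1 and Dhx58, it stayed above the median probe on all 3 arrays.

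Tlr3, the endosomal sensor, was dim throughout, with 9.8 in OP9, 2.2 in OP9-GFP and 2.3 in OP9-DL. Its mean lay below the brightness limit, so it is in none of the counts. The OP9 array again had the highest reading, but values of about 2 are near the lowest reading of the arrays, 1.0 on OP9 and OP9-GFP and 1.1 on OP9-DL, so the direction is given without a firm fold.

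Irf7, the factor that drives most interferon-alpha genes, had the widest difference of all 9 genes. Its intensity was 424.4 in OP9, 14.2 in OP9-GFP and 31.6 in OP9-DL, so OP9 was 29.9-fold above OP9-GFP and 13.4-fold above OP9-DL. In OP9-GFP against OP9 its log2 difference of -4.90 ranked 5 from the lowest among the 15581 probes.

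Stat2, the STAT that ties ISGF3 to the type I receptor, had an intensity of 355.0 in OP9, 31.6 in OP9-GFP and 72.5 in OP9-DL. OP9 was 11.2-fold above OP9-GFP and 4.90-fold above OP9-DL. Irf9, the DNA-binding subunit of ISGF3, stood at 240.4, 44.2 and 80.5 in the same order. Its differences from OP9 were the narrowest of the factors, 5.44-fold for OP9-GFP and 2.99-fold for OP9-DL.

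Both receptor chains were close on all arrays. Ifnar1 had 53.5 in OP9, 45.6 in OP9-GFP and 38.9 in OP9-DL, so OP9 was 1.17-fold and 1.38-fold higher. Ifnar2 had 46.8, 42.6 and 31.9, for which OP9 was 1.10-fold and 1.47-fold higher. Both chains were highest on OP9 and lowest on OP9-DL, but the differences lay well inside the spread of all probes. In OP9-GFP against OP9 they stood at percentiles 31.1 and 37.5 of the compared probes, and the middle 95% ran from -1.55 to 1.26 on the log2 scale. In OP9-DL against OP9 they stood at percentiles 20.2 and 16.6. There the middle 95% began at -1.71, and Irf9, at -1.58, also lay inside it, though near its lower end.

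**Figure D2:**
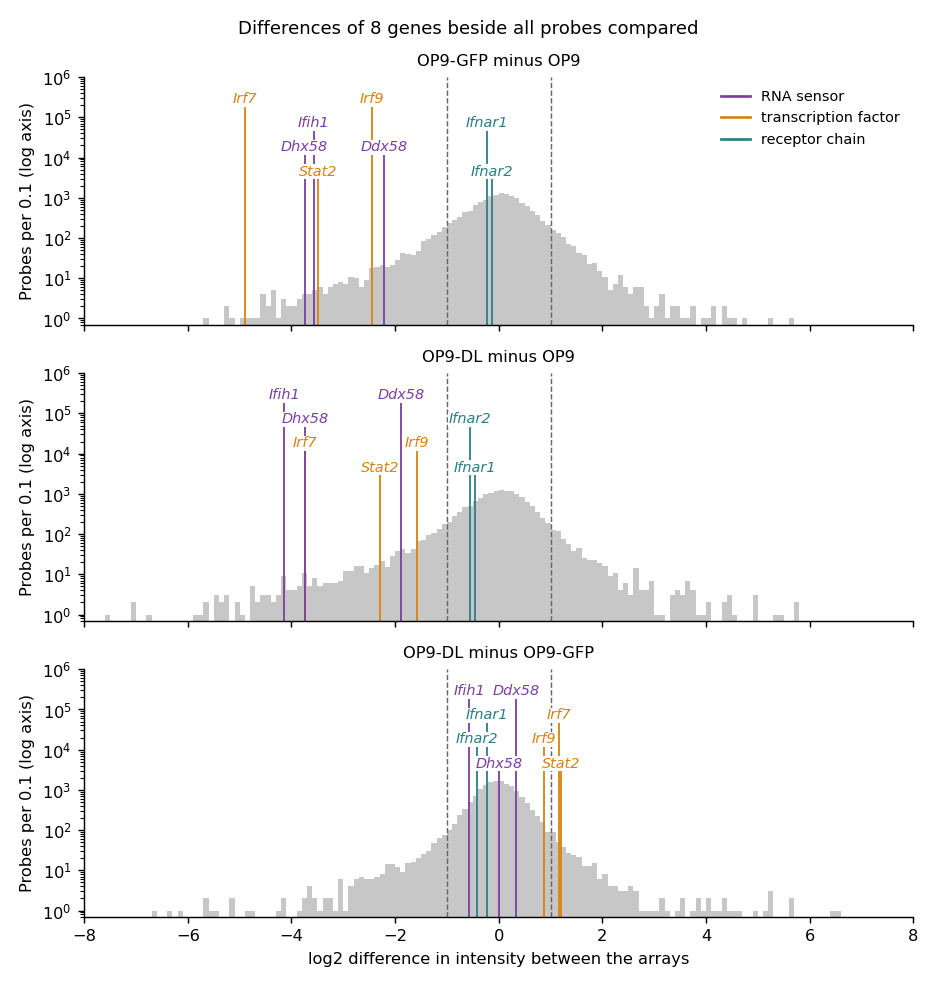
Log2 difference in intensity of the 8 compared genes (coloured lines, whose heights only make room for the names) over the histogram of all 15581 compared probes (grey, counts per 0.1 on a log axis), for each pair of arrays; dashed lines mark 2-fold. In both comparisons with OP9 the 6 sensors and factors lie in the lower tail and the receptor chains near 0, and in OP9-DL minus OP9-GFP the factors are the 3 highest of the 8.

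Sensors and factors parted when OP9-DL was set against OP9-GFP, which differ by Delta-like 1 per the labels. All 3 factors were higher in OP9-DL: Stat2 by 2.29-fold, Irf7 by 2.23-fold and Irf9 by 1.82-fold. Of the 8 genes 2 were thus higher by 2-fold or more, against 2.31% of the compared probes, and 0 were lower by as much, against 2.73%. The sensors had no common direction. Ifih1 was 1.48-fold lower in OP9-DL, Ddx58 1.26-fold higher, and Dhx58 differed by 0.01 on the log2 scale, with a sign that turned under lowess scaling. The median log2 difference was 1.15 for the factors, 0.01 for the 3 compared sensors and -0.32 for the receptor chains, beside -0.01 over all compared probes. Even so, each factor in OP9-DL was at least 2.99-fold below its level in OP9.

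How far single probes can be trusted at this size of difference can be read from 129 genes with more than 1 compared probe. For OP9-DL against OP9-GFP, the log2 differences given by the first pair of probes of such a gene lay a median of 0.30 apart, and the 90th percentile was 1.00. The log2 differences of Irf7 (1.15) and Stat2 (1.20) are just above that percentile and that of Irf9 (0.86) is below it. In OP9-GFP against OP9 the same percentile was 1.04, and the 6 sensors and factors had log2 differences from -4.90 to -2.21. In OP9-DL against OP9 it was 1.34, and theirs ran from -4.14 to -1.58. Probes of a gene share the RNA and the array, so these values do not show how cultures of a line vary.

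The genes of other steps of the circuit were described from lists. The interferon ligands were dim and close between the arrays, and 0 of 5 compared genes were 2-fold or more apart in any of the 3 comparisons. By as much, 6.75% of all probes were lower and 4.86% higher in OP9-GFP than in OP9, and 6.92% and 4.33% in OP9-DL. In OP9-DL against OP9-GFP the shares were 2.73% and 2.31%. Ifnb1, interferon-beta, made early by virus-infected fibroblasts, read 6.4 in OP9, 6.4 in OP9-GFP and 6.3 in OP9-DL. Ifna2 stood at 7.1, 8.8 and 7.0, Ifna13 at 15.9, 21.0 and 18.4, Ifne at 8.6, 12.1 and 11.0, and Ifnl3 at 17.3, 15.2 and 16.3. All of these are below or just above the median probe of 20. Interferon-alpha genes are near-identical copies that a probe can mix, so Ifna2 and Ifna13 are uncertain, and 12 of the 19 listed ligands had no probe named here.

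Of 17 other sensors, adaptors and regulators of sensing, 4 were at least 2-fold lower and 0 higher in each comparison with OP9. Of all compared probes, 6.75% were lower and 4.86% higher in OP9-GFP, and 6.92% and 4.33% in OP9-DL. The medians were -0.45 for OP9-GFP and -0.67 for OP9-DL, against 0.02 over all compared probes in both cases. The 4 were the same genes. Trim25, a ubiquitin ligase that activates RIG-I, had an intensity of 380.8 in OP9, 38.6 in OP9-GFP and 82.2 in OP9-DL. Adar, which edits double-stranded RNA so that MDA5 does not read it as foreign, had 83.6, 9.5 and 21.6. Unc93b1, which carries nucleic acid-sensing Toll-like receptors including TLR3 to endosomes, stood at 93.1, 23.8 and 6.0, and Eif2ak2, the RNA-activated kinase PKR, at 66.4, 25.2 and 31.5. Mavs itself, the adaptor of MDA5 and RIG-I, read 97.1, 86.3 and 92.3, and Ticam1, the adaptor of TLR3, 28.3, 21.9 and 18.6. At the other end of the list lay Ddx3x, an RNA helicase, whose probes read 392.3, 549.5 and 518.5 and 440.9, 592.1 and 546.7. Ddx41, a sensor of DNA, had 106.9, 110.1 and 87.8, and Tnfaip3, the NF-kappa-B inhibitor A20, had 92.8, 90.9 and 108.4.

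The kinases and factors upstream of interferon were mostly within 2-fold of OP9. Of 20 such genes, 2 were at least 2-fold lower and 1 higher in OP9-GFP than in OP9, and 4 were lower and 2 higher in OP9-DL. Over all compared probes 6.75% were lower and 4.86% higher in OP9-GFP, and 6.92% and 4.33% in OP9-DL. Irf1, a related interferon regulatory factor, was among the lowest in both, with 231.0, 54.2 and 34.7. Ikbke, a kinase of IRF3 and IRF7, had 53.7, 16.8 and 20.6. Irf3, which is present before infection and starts interferon synthesis, had 243.3, 244.9 and 297.3, and its kinase Tbk1 173.1, 172.7 and 212.1. Traf3, which links MAVS to TBK1, stood at 13.7, 11.9 and 2.8, and Jun, a subunit of the factor AP-1, was the highest in both comparisons with OP9, at 66.5, 219.5 and 286.6. Next to it lay Ikbkg, the NEMO subunit of the IKK complex, at 14.7, 26.5 and 31.7, which was 2-fold or more above OP9 in OP9-DL alone.

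Among 10 other interferon receptor chains, kinases and STATs, 1 was at least 2-fold lower in OP9-GFP than in OP9 and 3 were in OP9-DL, with 0 higher. The shares of all compared probes were 6.75% lower and 4.86% higher in OP9-GFP, and 6.92% and 4.33% in OP9-DL. The kinases of the type I receptor read 410.4, 305.4 and 356.4 (Jak1) and 155.6, 97.1 and 95.3 (Tyk2). Stat5a had 58.6, 23.9 and 28.4, and Stat3 324.2, 179.5 and 88.4. Ifngr1, a chain of the interferon-gamma receptor, had 152.0, 159.3 and 150.7. Ifngr2, its partner, had 65.5, 100.7 and 59.6, Il10rb 165.9, 115.0 and 79.7, and Stat6, which serves interleukin-4, 55.3, 49.4 and 65.6. Of 12 brakes on the pathway, beside the same shares of all probes, only Usp18 was at least 2-fold apart in the comparisons with OP9. It encodes the protease that removes ISG15 and also blocks IFNAR2, and it stood at 968.5, 45.2 and 71.2. The suppressors Socs1 (42.3, 35.2 and 47.2) and Socs3 (451.6, 352.3 and 315.3) stayed within 2-fold. The other ends of this list were phosphatases and PIAS proteins: Ptpn1 (482.2, 490.9 and 244.2), Ptpn2 (124.7, 221.8 and 141.7), Ptpn11 (9.4, 16.3 and 11.4), Pias2 (147.0, 244.6 and 181.6) and Pias3 (40.2, 30.8 and 29.0).

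Interferon-stimulated effectors, among them targets of ISGF3, were low with the factors. Of 26 compared, 22 were at least 2-fold lower in OP9-GFP than in OP9, against 6.75% of all probes, and 22 in OP9-DL, against 6.92%. In both, 0 were higher, against 4.86% and 4.33%. The widest log2 differences were those of Ifit3 (-5.64) and Oas2 (-5.23) in OP9-GFP, and of Ifi44 (-7.02) and Psmb8 (-6.77) in OP9-DL. In the order OP9, OP9-GFP and OP9-DL, Ifit3 read 269.5, 5.4 and 10.6, and Ifi44 324.4, 12.1 and 2.5. The lowest reading of each was below the brightness limit of 6.13, so neither fold is firm. That limit is on the mean over the arrays, so Mx2, at 39.8, 2.7 and 2.2, and Ifi44 are counted only through their OP9 readings. The 4 within 2-fold of OP9 in both lines were Mx1 (0.31 in OP9-GFP and 0.26 in OP9-DL), Rsad2 (-0.49 and -0.21), Ifi27 (-0.53 and 0.67) and Isg20 (-0.76 and -0.10). The effectors' medians were -3.03 and -3.27, beside -3.49 and -2.29 for the 3 factors. In OP9-DL against OP9-GFP the effectors had a median of 0.03, with 3 higher and 3 lower by 2-fold or more. Over all compared probes 2.31% were higher and 2.73% lower by as much. Over all 6 lists, 30 genes were at least 2-fold lower than OP9 on both arrays. Of these, 4 were higher by 2-fold or more in OP9-DL than in OP9-GFP, as Irf7 and Stat2 were: Trim25, Adar, Oas1a and Samd9l. Another 4 were lower there by 2-fold or more: Unc93b1, Ifi44, Parp12 and Psmb8. The OP9-DL readings of Unc93b1 (6.0) and Ifi44 (2.5) were below the brightness limit. The comparisons with OP9 share the OP9 array, so that array's own reading enters both.

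**Figure D3:**
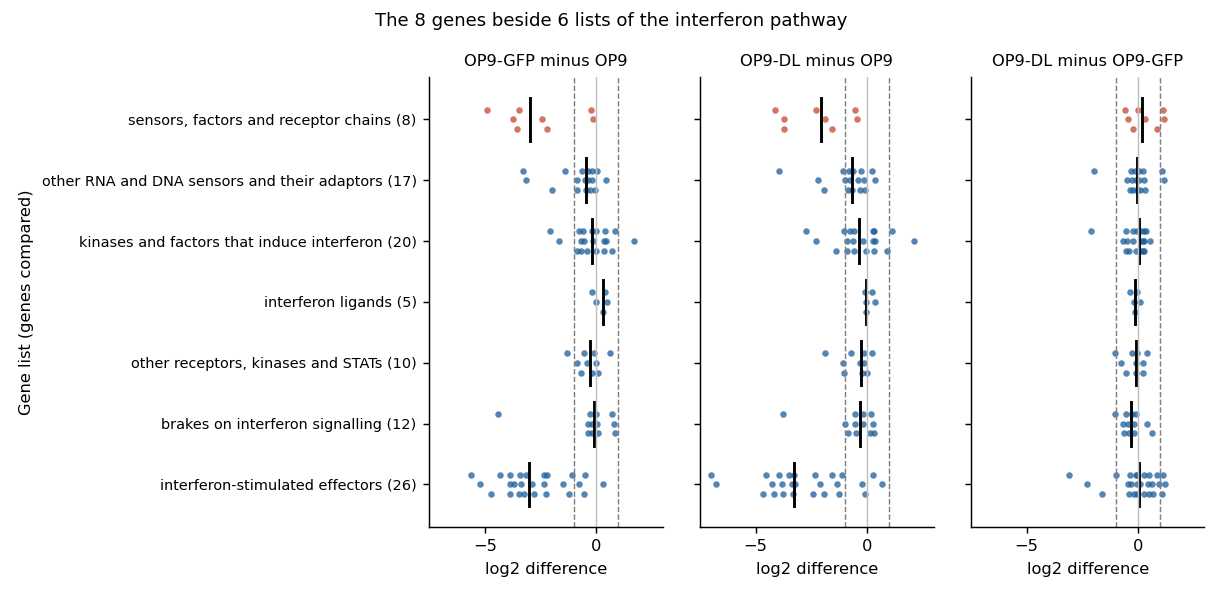
Log2 differences of single genes (points) and their median (black bar) for the 8 compared genes (red) and 6 lists of the interferon pathway (blue), for each pair of arrays; points are staggered vertically only to keep them apart, and dashed lines mark 2-fold. Of the effectors 22 of 26, and the 6 sensors and factors, lie past 2-fold below 0 in both comparisons with OP9, whereas 4 effectors, the receptor chains and the 5 interferon ligands lie within 2-fold.

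The genes whose pattern over the 3 arrays lay nearest to the median pattern of the 8 compared genes were sought among 11359 genes with a symbol. Likeness was the Euclidean distance between log2 values, each centred on its own mean over the 3 arrays. Sh3tc2 was nearest at 0.11, with an intensity of 26.3 in OP9, 4.3 in OP9-GFP and 6.2 in OP9-DL. Tapbp followed at 0.16 (307.7, 46.7 and 64.5), C1s1 at 0.20 (39.3, 7.2 and 10.1), Tor3a at 0.21 (406.8, 59.9 and 110.0) and Cdkl2 at 0.22 (29.6, 4.5 and 8.2). The OP9-GFP readings of Sh3tc2 and Cdkl2 were below the brightness limit of 6.13. Both genes met that limit, which is on the mean over the arrays, only through their OP9 readings. The median pattern mixes the 6 sensors and factors with the 2 receptor chains, which stayed within 2-fold, so it stands for neither group alone. With 3 arrays a profile holds only 2 free values, so many genes can lie near it.

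The labels and the cell type were checked on the same arrays. Dll1 read 14.0 in OP9, 20.5 in OP9-GFP and 333.3 in OP9-DL. Of 9 stromal markers, 6 were bright enough to compare, among them Col1a2 (6613, 5922 and 5145) and Cxcl12 (3720, 4411 and 1997), while Thy1, Eng and Nt5e were below the limit. Pdgfra, also a stromal marker, moved with the sensors and factors, at 800.6, 166.1 and 127.1, while Col1a1 went the other way, at 269.3, 712.9 and 557.0. Pdgfrb had 418.3, 277.8 and 221.1 and Vcam1 339.6, 242.6 and 350.3. The summed intensity of the 9 stromal probes was 12168, 11741 and 8409, and the part of such stromal differences in the results was not tested. For 9 blood and macrophage probes the sum was 152.4, 144.9 and 147.4, with Ptprc at 2.1, 2.5 and 2.8 and Adgre1 at 1.3, 1.1 and blank. Of the 5 that were compared, Cd14 was lower in both lines (55.6, 34.0 and 23.0), past 2-fold in OP9-DL, and the part of this in the results was not tested. The others stayed within 2-fold: Cd68 (29.4, 42.9 and 46.3), Csf1r (24.8, 19.9 and 20.6), Laptm5 (23.1, 25.5 and 31.4) and Tyrobp (9.3, 11.7 and 13.9). The sum over 7 probes for plasmacytoid dendritic cells, which are rich in Irf7, was 117.2, 117.1 and 130.3, with their surface marker Siglech at 27.2, 25.6 and 26.6. The sums were 33.6, 24.8 and 30.6 for 6 endothelial probes and 15.3, 17.6 and 14.3 for 3 epithelial probes.

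**Figure D4:**
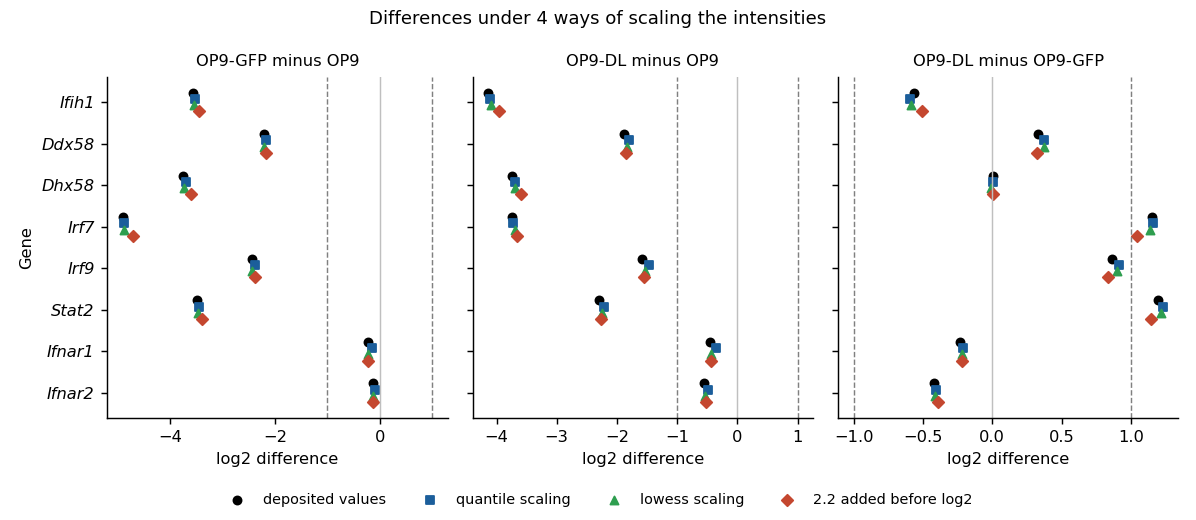
Log2 difference of each compared gene for each pair of arrays with the deposited values (black), after quantile (blue) or lowess (green) scaling, and with 2.2 added before log2 (red); dashed lines mark 2-fold, and the horizontal scales differ between panels. No gene moved across a 2-fold line under these scalings, and Dhx58 in OP9-DL minus OP9-GFP lies at 0.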

How the data were processed

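Per the labels' protocols, total RNA was amplified with an amino allyl kit, and dye coupling (Cy5) and fragmentation followed Toray, who made the array. The deposited values are linear probe intensities that the authors scaled: the values themselves show a median of 20 per array. Scanner, background correction and the reason for blank cells (6.32% to 6.62% of probes) are not stated in the labels. They were used without further scaling, as log2 of the intensity. Probes with a value on all 3 arrays (20775) and a mean log2 at or above the 25th percentile (15581) were compared, and called at 2-fold. Names came from the platform's gene table (16631 probes with 1 symbol; the other 6842 are unnamed here), updated through RefSeq gene names of GRCm38.p6 (12622 current, 3947 renamed, 62 kept). Probes of a gene were averaged.

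All 9 genes are named, with the 2 highest and 2 lowest of each list in the comparisons with OP9, the ligands, Dll1 and the 5 nearest genes. Other listed genes, such as Mavs, Ticam1, Irf3, Tbk1, Jak1, Tyk2, Socs1, Socs3, Eif2ak2, Isg20, Mx2 and those in the count of 4 against 4, and the markers shown, were chosen after their values were seen. The members and lists were chosen with earlier results of these data known. With 1 array per line no test was possible, and their number limits the precision. The counting was checked on simulated arrays. Python 3.11.15, numpy 2.4.6, pandas 2.3.3, statsmodels 0.14.6 and matplotlib 3.10.9 were used.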

Additional observations from a re-analysis of the deposited data

How the results depend on the processing

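These alternatives were tried on the comparisons of these genes: quantile and lowess scaling (span 0.3), 2.2 added before log2, dropping the limit on dim probes or raising it to the 50th percentile, thresholds of 1.5-fold and 3-fold, the brightest probe per gene, and blanks set to the lowest value of the array. The number of genes lower than OP9 ran from 6 to 7 for OP9-GFP and from 5 to 7 for OP9-DL; the 7 includes Tlr3, without the limit on dim probes, and the 5 leaves out Irf9 at 3-fold. Over all probes 6.69% and 6.55% were lower without the limit, 2.36% and 2.83% at 3-fold, and 15.4% and 15.7% at 1.5-fold. The median log2 difference ran from -2.97 to -2.44 and from -2.09 to -2.01. Between OP9-DL and OP9-GFP, 3 genes were higher at 1.5-fold, where Irf9 joined Irf7 and Stat2, and 0 at 3-fold, against 7.77% and 0.706% of all probes. No value of a gene called at 2-fold changed sign. No paired analysis was possible because each line has 1 array, and no replicate could be left out for the same reason. Tlr3 is limited by its dim signal.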

Other observations

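The receptor chains lie in a row of cytokine receptor genes on chromosome 16, in the order Ifnar2, Il10rb, Ifnar1 and Ifngr2 in RefSeq's GRCm38.p6. Il10rb, a chain shared by the receptors of interleukin-10 and interferon-lambda, read 165.9 in OP9, 115.0 in OP9-GFP and 79.7 in OP9-DL. Its log2 difference of OP9-DL against OP9 was -1.06, the only one of the row past 2-fold in any of the 3 comparisons. Ifngr2, a chain of the interferon-gamma receptor, read 65.5, 100.7 and 59.6, and was thus highest on the OP9-GFP array, where Ifnar1, Ifnar2 and Il10rb had their middle value.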
